A study of Saccharomyces cerevisiae with 21 samples.

Results

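The Luc7 degron strain of Saccharomyces cerevisiae, sampled before its Luc7 protein was depleted, was compared with wildtype cells at low density. Each side had 3 libraries, picked by their group label alone, so 6 of the 21 libraries of the series entered. Every one of the 6571 coding sequences in the deposited tables was considered, and 6113 passed the filter on low counts. The study measured polyadenylated RNA in 7 groups, of wildtype cells and of strains altered in U1 snRNP proteins.

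The undepleted group is labelled as the Luc7 degron strain without IAA, the auxin that triggers loss of a degron-tagged protein. Its culture density is not labelled, and the notes do not say whether these cells received beta-estradiol, which depleted cells were given with IAA for 6 hours. The control group is wildtype at an OD600 near 0.4. A pair of further controls shared the degron libraries in their own comparisons. These were wildtype at an OD600 near 5, from the study's earlier experiment, and a Luc7 triple mutant labelled low density without a reading, whose changes the labels do not name. Levels in depleted degron cells are given beside them without a test. Cultures grew in YPD or a dropout medium, with no record of which strain had which, and the strain background, the tag's marker and the number of clones are not given. Strain, marker genes, medium and density therefore cannot be told apart in any value below.

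Luc7 is a protein of the U1 snRNP, the particle that binds the start of an intron, the 5′ splice site, at the first step of splicing. Yeast Luc7 is known to help U1 hold 5′ splice sites that pair poorly with its RNA. Fusion to a degron is known to lower some proteins before any auxin is added, and placing the fusion leaves a selectable gene in the strain. Protein was not measured here.

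Libraries held 31.7 to 39.3 M assigned reads in the degron group and 29.1 to 30.4 M in wildtype at low density. Levels are counts per 1 M reads (CPM) after TMM scaling over all 21 libraries, written normalized CPM. Fold changes are edgeR log2 values ± SE, degron over control, with 3 libraries a group, and a gene was called at a Benjamini-Hochberg adjusted p below 0.05. Degron replicate 1 stood apart in Salmon's mean length correction and in its reads of URA3, given below. The correction, which grows with fragment length, was 149.6 bases there, 226 and 229.7 in the other degron libraries and 241.9 to 281 in wildtype. Whether replicates came from separate cultures is not recorded, so p-values measure the spread between these libraries. In RNA from whole cultures, fewer cells of a kind and less RNA per cell cannot be told apart.

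Most genes that were tested, 51.6% of them, were called different between the strains. Of 6113 genes, 1612 were called higher in the degron strain (26.4%) and 1545 lower (25.3%), and the median log2 fold change of all genes tested was 0.02. Those shares are the background for each list count at low density below, and counts near them are no trait of a list. Most differences were small. Those called and at least 2-fold numbered 235 higher (3.84%) and 149 lower (2.44%). For 62.0% of the genes the 3 degron libraries did not overlap the 3 wildtype libraries. The higher genes included hexose transporters, mating genes, cyclins and spliceosome subunits, and the lower ones ribosomal protein, intron-containing, leucine pathway, calcineurin and iron uptake genes. On deposited TPM without rescaling, limma called 3439 higher and 463 lower, with the median of all genes at 0.36, so directions below are relative to the typical gene.

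LUC7 RNA was higher in the strain that carries the degron (chromosome IV, 300214–300999). It stood at 83.7, 79.1 and 128 normalized CPM in the degron libraries and 39.5, 46.8 and 41.1 in wildtype at low density. The groups did not overlap, and degron replicate 3 was the highest. The log2 fold change was 1.19 ± 0.17 (adjusted p = 0.000402), or 2.28-fold. LUC7 was at 32.0 to 37.9 in wildtype at high density and 36.9 to 43.5 in the triple mutant, and read 101 to 145 in depleted degron cells, whose treatment acts on the protein. The genes on either side were named after their values were seen. ASM4, a nucleoporin gene, was at 0.49 ± 0.07 (adjusted p = 0.000328), and YDL086W was at −0.44 ± 0.10 (adjusted p = 0.00438).

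The other U1 snRNP genes had calls in both directions. Of the 16 besides LUC7, 4 were called higher and 3 lower, with a median of −0.14 against 0.02 over all genes. Over all genes tested 26.4% were called higher and 25.3% lower, so these counts are near the background. SNP1, the U1-70K subunit that binds a stem-loop of U1 RNA, was the lowest. It read 34.7, 33.7 and 33.4 normalized CPM in degron cells and 95.2, 116 and 99.6 in wildtype, and the degron libraries lay well below every wildtype library. Its log2 fold change was −1.61 ± 0.08 (adjusted p = 8.4e-07), so wildtype had 3.05-fold more. SNP1 was also at 112 to 122 in wildtype at high density, 78.8 to 81.2 in the triple mutant and 32.2 to 37.0 in depleted degron cells. The low level was thus seen in both degron groups and in none of the other 3 groups shown. Next to SNP1 (chromosome IX, 244657–245559), ARC15, an Arp2/3 complex gene, was at −0.67 ± 0.11 (adjusted p = 0.000934) and YIL060W at −0.02 ± 0.16 (adjusted p = 0.939), both picked after their values were seen.

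**Figure D1:**
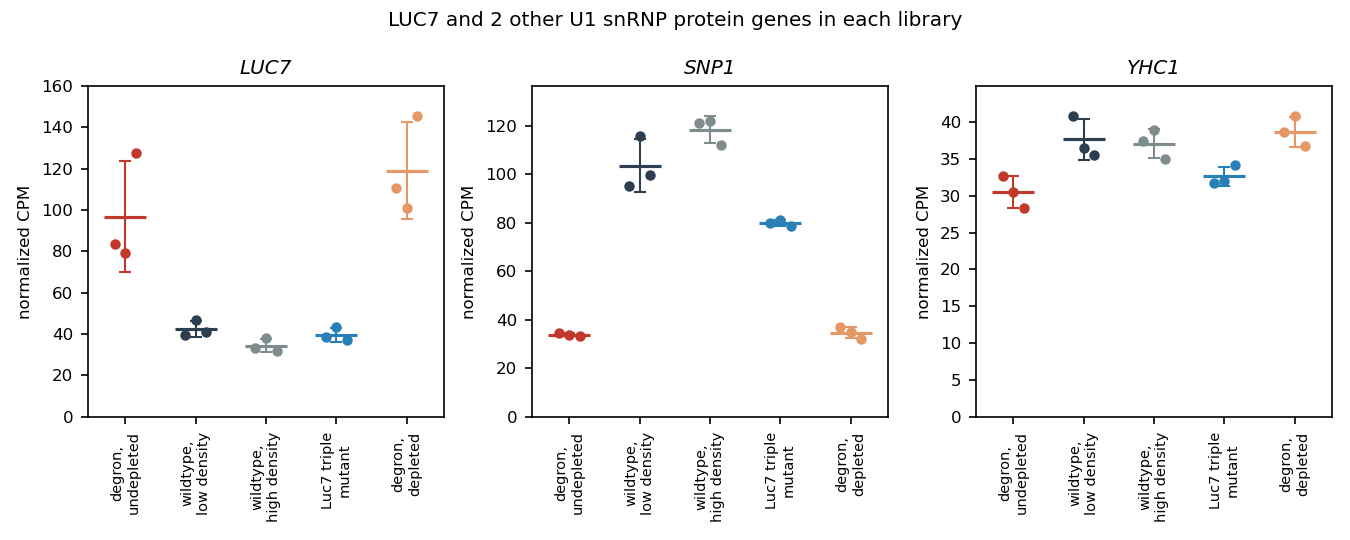
Normalized CPM (linear axis from 0) of LUC7, SNP1 and YHC1 in the 3 libraries of 5 groups, with each point a library, the line the mean and the bar ± 1 SD. LUC7 is high and SNP1 low in both degron groups, while YHC1 covers a narrow range in all 5.

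PRP39, a yeast U1 subunit, was higher. It read 104, 95.3 and 97.1 normalized CPM against 63.8, 55.3 and 67.8 in wildtype, with no overlap, a log2 fold change of 0.66 ± 0.09 and an adjusted p of 0.000261. SNU56, another U1 subunit found in yeast, was at 0.34 ± 0.07 (adjusted p = 0.00256). YHC1, which encodes U1-C, was called lower at −0.31 ± 0.09 (adjusted p = 0.0152), from 40.8, 36.5 and 35.6 in wildtype to 32.7, 30.4 and 28.3 in degron cells. That call was lost without degron replicate 3 or wildtype replicate 1 (adjusted p = 0.0669 and 0.0654) and after the offset for length and GC (adjusted p = 0.0684). The third gene called lower was SMD2, a core Sm protein gene, at −0.41 ± 0.14 (adjusted p = 0.0303), a call lost without degron replicate 1 or 2 or wildtype replicate 2 or 3 (adjusted p from 0.0612 to 0.0823) and with a replicate block (adjusted p = 0.0517).

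Spliceosome genes outside U1 were mostly a little higher. Of 48, 26 were called higher and 4 lower, with a median of 0.21. The count of higher genes was 17 without wildtype replicate 1. HSH155, a U2 subunit that holds the branch point, went from 61.7, 59.0 and 68.5 to 89.9, 86.2 and 89.1 normalized CPM (0.48 ± 0.07, adjusted p = 0.000634). CDC40, a second-step factor, was at 0.49 ± 0.08 and the ATPase gene PRP2 at 0.43 ± 0.07 (adjusted p = 0.0007 and 0.000678). In each of these genes the groups did not overlap, as in 62.0% of all genes tested.

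At 2 nutritional marker genes nearly all reads came from 1 of the strains. LEU2, which encodes the third enzyme of leucine synthesis, had 18342, 18192 and 32142 reads in the degron libraries and 0 in every wildtype library. With 3 reads over the wildtype group as the limit that a count of 0 allows, LEU2 was at least 19454-fold higher in the degron strain. URA3, an enzyme of pyrimidine synthesis, was the reverse. It had 18537, 20725 and 19716 reads in wildtype but 101, 0 and 0 in degron cells, a 687-fold difference in group CPM. The 101 reads are all in degron replicate 1. Without that library, and with 3 reads as the limit for the other degron libraries, URA3 was at least 16160.5-fold higher in wildtype. The triple mutant had LEU2 reads and no URA3 read. Depleted degron libraries had 771, 20 and 0 URA3 reads. LYS2 had no read in any library of these groups. ADE2, a purine enzyme, was called higher (0.81 ± 0.06), as was the arginine permease gene CAN1 (0.74 ± 0.09). HIS3 was called lower (−0.34 ± 0.09), a call lost after the offset for length and GC (adjusted p = 0.259), and MET17 was called lower (−0.50 ± 0.06), although a gene on the opposite strand overlaps it. TRP1 was not called (−0.17 ± 0.11, adjusted p = 0.242).

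Genes with introns were lower in the degron strain before depletion. The 5′ splice sites of genes discussed below are printed to show the bases that U1 pairs with. Each run holds 8 bases of exon and then the intron's start, with the first 6 intron bases in capitals. They were read from the R64 genome (sacCer3), and the consensus in yeast is GTATGT. Here and below, an intron is a gap of at least 20 bases inside an annotated coding sequence. Introns before the coding start were not seen, and the first intron of a gene is the first such gap.
DBP2: aggtatcgGTATGTtaaaattttctcca
NCB2: tcccaaggGTATGTtagttatattgttg
RPS22B: aaagcatgGTATGTtccaactatttttc
SEC27: atataaagGTATGTtaccagagcgcgtt
OM14: tctgcaacGTATGTacactaatatctga
SRC1: ggaggcaaGTGAGTacaatttattatct
COX5B: tgtaaagaGCATGTataacaaacactga

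Outside the ribosomal protein genes, 180 annotated genes had an intron and 174 were tested. Of these, 14 were called higher and 101 lower, with a median of −0.38 against 0.02 over all genes, and a background of 25.3% called lower. The 125 tested genes whose first intron opens with GTATGT had 85 lower and 4 higher (median −0.42). The 49 with another site had 16 lower and 10 higher (median −0.08). Sites were taken as annotated, without screening. Among the 52 annotated genes of that class, AGGTAT and CCGTGA, in 1 gene each, open with neither GT nor GC. The difference between these classes was not tested, and their medians lay closer together against the other controls, given below. The coding sequences counted were spliced ones, so reads from exons of unspliced RNA also counted toward a gene, and unspliced RNA was not analysed here.

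DBP2, an RNA helicase gene whose intron takes part in its own control, was among the clearest of the intron genes. It read 684, 729.6 and 693 normalized CPM against 1754, 1633 and 1607 in wildtype, with no overlap (−1.25 ± 0.07, adjusted p = 1.15e-06). Its intron spans chrXIV:414912-415913 on the plus strand, 1002 bases. NCB2, a subunit of a transcription repressor, was lower still. It read 9.84, 13.1 and 11.4 against 41.9, 42.9 and 37.9 (−1.84 ± 0.11, adjusted p = 3.19e-06), and in depleted cells it read 4.18, 3.02 and 4.27. Both were lower than wildtype at high density too, at −1.02 ± 0.10 and −1.69 ± 0.13, in a comparison that shares the degron libraries. SEC27, a coatomer gene with a 200-base intron, fell from 388, 370.3 and 398 to 241, 246 and 244 (−0.66 ± 0.06, adjusted p = 2.88e-05).

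Several intron genes picked after their values were seen show the range among non-ribosomal genes. RPO26, an RNA polymerase subunit, was at −1.04 ± 0.10, the proteasome core gene PRE3 at −1.10 ± 0.11, HNT1 at −0.97 ± 0.09 and TMA20 at −0.86 ± 0.08, all called lower. The exceptions that rose included SRC1, an inner nuclear membrane protein gene whose alternative splicing gives different proteins. SRC1, with a GTGAGT site, read 127, 125 and 118 normalized CPM against 82.7, 81.1 and 97.8 (0.50 ± 0.09, adjusted p = 0.00122). COX5B, a cytochrome oxidase subunit expressed when oxygen is low, has a GCATGT site and was at 0.57 ± 0.10 (adjusted p = 0.00156). OM14, a mitochondrial outer membrane gene with the consensus site, was at 0.48 ± 0.08 (adjusted p = 0.00124).

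Ribosomal protein genes were lower with or without an intron. Of the 89 tested with an intron, 78 were called lower and 1 higher, with a median of −0.60. Of the 48 tested without one, 44 were lower and 0 higher, with a median of −0.64. Together they took 12.5 to 13.4% of the reads in degron libraries and 15.9 to 18.1% in wildtype at low density. The median was −0.60 over 66 genes with GTATGT and −0.60 over 23 without. Most of these genes come as near-identical pairs, and how Salmon split shared reads between copies is uncertain.

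RPS22B, a small-subunit gene, was the lowest of the intron-bearing ones. Its libraries read 75.5, 64.3 and 76.5 normalized CPM against 251, 287 and 239 in wildtype (−1.85 ± 0.09, adjusted p = 8.03e-07), and 10.6, 8.12 and 8.28 after depletion. RPS21A was at −1.11 ± 0.09 and RPL14B at −1.04 ± 0.07 (adjusted p = 2.22e-05 and 7.45e-06). Among intronless genes RPS25A was at −1.39 ± 0.09, RPL15A at −1.33 ± 0.10 and RPL8A at −0.90 ± 0.07. RPS14B, whose splicing its own protein is known to repress, was at −0.88 ± 0.08 against wildtype at low density but 0.04 ± 0.11 against wildtype at high density (adjusted p = 3.7e-05 and 0.805).

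**Figure D2:**
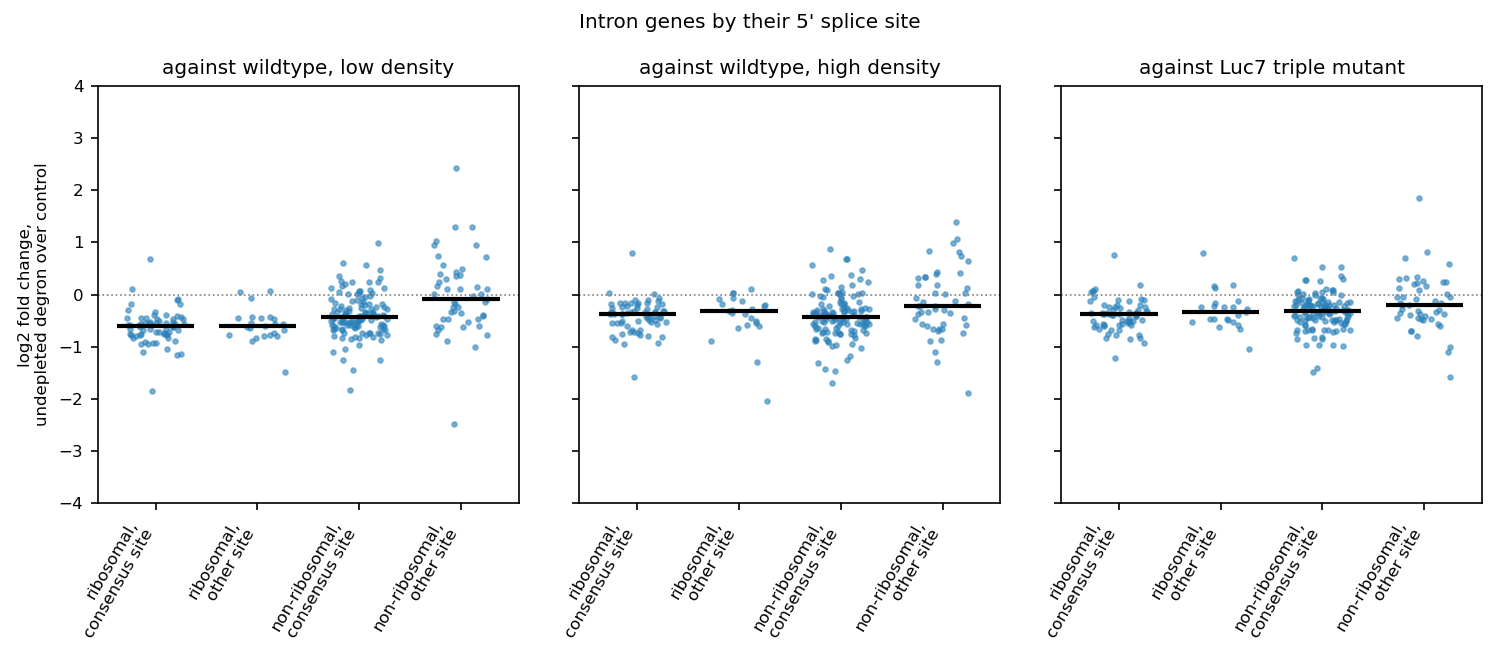
Log2 fold change of undepleted degron cells over each of 3 controls (linear axis) for genes with an intron, split by ribosomal function and by whether the first intron opens with the consensus, with each point a gene and the line the median. Against wildtype at low density the medians are −0.60 in both ribosomal classes, −0.42 for other genes with the consensus and −0.08 for other genes with another site. For the non-ribosomal classes they are −0.42 and −0.22 against wildtype at high density, and −0.32 and −0.19 against the triple mutant. The 3 panels share the degron libraries.

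Against the other controls the intron genes gave values of the same order. Against wildtype at high density, where 17.2% of the 6131 genes tested were called higher and 19.2% lower, 96 of 174 non-ribosomal intron genes were lower (median −0.38). Against the triple mutant, where 27.0% of 6138 were higher and 29.1% lower, 102 of 173 were lower (median −0.30). At high density 81 of 126 with GTATGT were lower and 5 higher (median −0.42). With another site, 15 of 48 were lower and 5 higher (median −0.22). Against the triple mutant the counts were 81 and 5 of 126 (median −0.32), and 21 and 5 of 47 (median −0.19). The counts over all genes against wildtype at high density, 1055 higher and 1175 lower, were 606 and 679 without degron replicate 3 and 588 and 702 without wildtype replicate 1 of that group. Intron-bearing ribosomal protein genes had medians of −0.36 and −0.38, and intronless ones −0.33 and −0.39. Since all 3 comparisons use the same degron libraries, these are the same strain seen against different controls.

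Leucine pathway genes were low in the strain that expresses LEU2. In yeast the pathway is known to be controlled by Leu3, a factor that binds sites of the form CCGGNNCCGG and activates its targets when an intermediate of the pathway, made just before the LEU1 step, accumulates. Whether Leu3 acts on the levels given here was not tested. Windows holding that motif before the coding start are printed for the genes of the leucine and branched-chain list that have it, with the motif in capitals (R64).
LEU2 (chrIII:91101-91160, plus strand): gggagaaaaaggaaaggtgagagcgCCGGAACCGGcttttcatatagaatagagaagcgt
LEU1 (chrVII:478835-478894, minus strand): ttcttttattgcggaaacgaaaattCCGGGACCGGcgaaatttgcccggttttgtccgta
BAT1 (chrVIII:517360-517419, plus strand): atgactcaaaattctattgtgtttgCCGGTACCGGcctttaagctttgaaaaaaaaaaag
ILV5 (chrXII:839596-839655, minus strand): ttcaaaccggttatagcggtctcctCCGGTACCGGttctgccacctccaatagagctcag
ILV2 (chrXIII:483591-483650, plus strand): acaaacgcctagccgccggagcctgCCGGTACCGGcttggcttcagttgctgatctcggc
GDH1 (chrXV:1043412-1043471, minus strand): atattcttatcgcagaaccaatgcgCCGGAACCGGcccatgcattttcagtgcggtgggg

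The motif, searched on both strands in the 600 bases before each coding start, was present for 20 of 5876 genes (0.34%), and for 6 of the 14 listed leucine and branched-chain genes. Since the list was chosen and not drawn at random, its share of genes with the motif is no test of Leu3. Of the 14 listed genes, 10 were called lower and 2 higher, a count that includes LEU2 itself, with a median of −0.53. LEU1, isopropylmalate isomerase, read 232, 216 and 224 normalized CPM in degron cells and 1138, 1005 and 1259.7 in wildtype. The degron libraries lay far below every wildtype one (−2.34 ± 0.09, adjusted p = 1.39e-07). BAT1, the mitochondrial branched-chain aminotransferase, read 249, 272 and 266 against 1041, 961 and 1034 (−1.95 ± 0.07, adjusted p = 7.15e-08). OAC1, a mitochondrial carrier that exports isopropylmalate, read 36.7, 41.6 and 40.7 against 178, 183 and 190.1 (−2.21 ± 0.07, adjusted p = 7.15e-08), with no motif in its window. ILV3, ILV5 and ILV2, enzymes shared with valine synthesis, were at −1.24 ± 0.08, −0.59 ± 0.06 and −0.38 ± 0.07, and GDH1, glutamate dehydrogenase, at −1.09 ± 0.07, all called lower.

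LEU3 itself, given after its value was seen, was not called (0.18 ± 0.11, adjusted p = 0.19). Over all 20 genes with the motif, 6 were called higher and 9 lower. LEU1, BAT1 and OAC1 were also low in the triple mutant, which has LEU2 reads as well, at 316 to 387, 397 to 456 and 50.3 to 70.9 normalized CPM. The degron strain was lower than that mutant too, by log2 values of −0.67 ± 0.07, −0.71 ± 0.06 and −0.60 ± 0.11. LEU1 was at −2.20 ± 0.12 when set against wildtype at high density. BAP2, a branched-chain amino acid permease gene that holds the motif, was at −1.28 ± 0.09 (adjusted p = 6.75e-06).

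**Figure D3:**
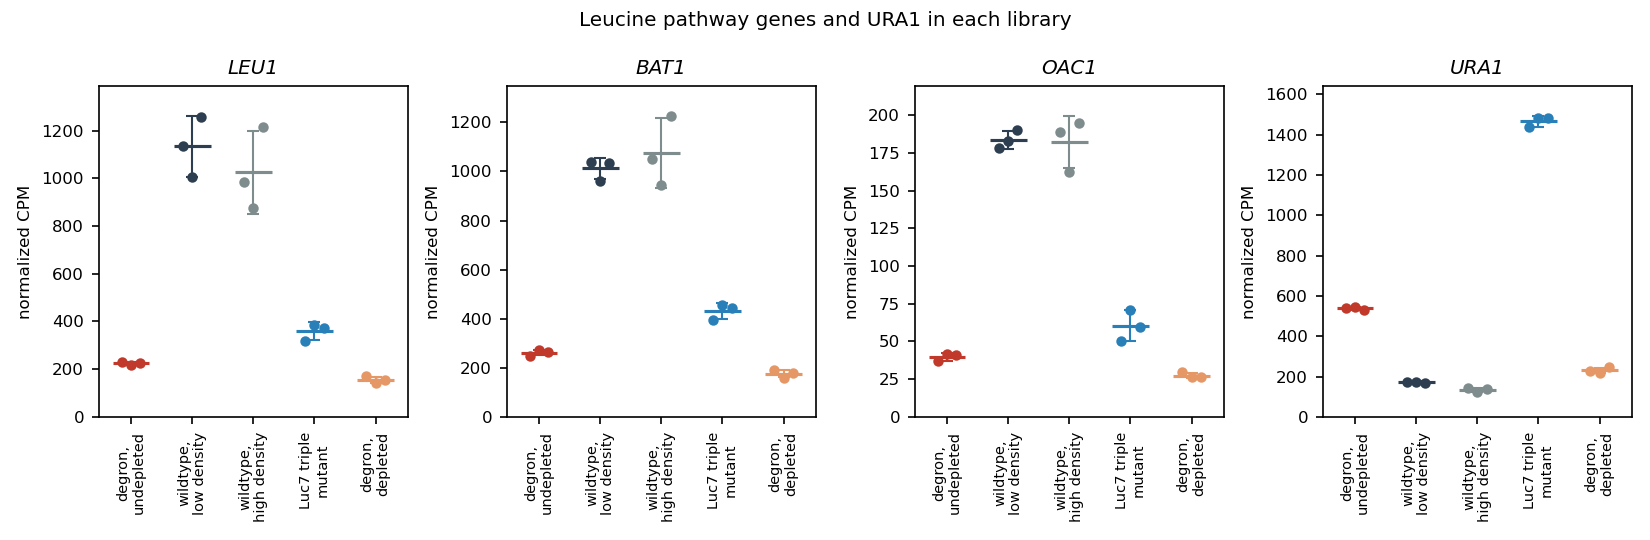
Normalized CPM (linear axes from 0) of LEU1, BAT1, OAC1 and URA1 in the 3 libraries of 5 groups, with the mean as a line and ± 1 SD as a bar. The 3 leucine pathway genes are low in both degron groups and the triple mutant, and URA1 is highest in the triple mutant.

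Pyrimidine genes had calls in both directions. Of 12 on the list, 3 were called higher and 6 lower, a count that includes URA3 itself. Over all genes 26.4% were called higher and 25.3% lower. URA1, dihydroorotate dehydrogenase, read 540.3, 543 and 530.1 normalized CPM against 175, 175 and 168 (1.64 ± 0.06, adjusted p = 7.15e-08). URA4, dihydroorotase, was at 0.54 ± 0.07 (adjusted p = 0.000299). These genes are known targets of Ppr1, which binds sites of the form CGGNNNNNNCCG and is activated when intermediates made before the URA3 step accumulate. That form was present within 600 bases of 186 of 5876 genes (3.17%). Among genes of the leucine and pyrimidine lists it stood before URA3, LEU1, ILV5 and ILV2, all called lower. It also stood before URA1 at 2 places and URA4 at 1, printed here with the motif in capitals.
URA1 (chrXI:24978-25039, plus strand): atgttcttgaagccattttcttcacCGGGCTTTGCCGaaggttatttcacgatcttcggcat
URA1 (chrXI:25009-25070, plus strand): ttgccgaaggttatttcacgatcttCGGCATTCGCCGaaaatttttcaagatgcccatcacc
URA4 (chrXII:963630-963691, plus strand): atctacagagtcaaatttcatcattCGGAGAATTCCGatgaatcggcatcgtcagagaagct

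Both genes stood higher in the triple mutant, which had no URA3 read. There URA1 read 1436, 1480.5 and 1482 and URA4 490.3, 547 and 547 normalized CPM, so the degron strain was at −1.44 ± 0.04 and −1.21 ± 0.06 against it. Degron replicates 2 and 3 had 0 URA3 reads as well. Whether URA3 or Ppr1 bears on these levels was not tested. Lower calls besides URA3 included the CTP synthase gene URA8 at −0.68 ± 0.07 (adjusted p = 4.95e-05).

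Hexose transporter genes were mostly higher. Yeast chooses among these transporters by the glucose it senses, and high-affinity ones are made when glucose runs low. Of 19 tested, 13 were called higher and none lower, with a median of 0.66. HXT7, a high-affinity transporter, read 467, 440.1 and 539 normalized CPM against 43.2, 35.9 and 41.4 in wildtype at low density (3.58 ± 0.10, adjusted p = 2.58e-08). Its near-identical copy HXT6 was at 1.21 ± 0.07, and reads of the pair may have been split between them. HXT4 read 574, 483 and 659 against 61.0, 65.7 and 62.1 (3.18 ± 0.11, adjusted p = 7.15e-08). MTH1, a repressor of transporter genes that acts when glucose is absent, read 103, 90.9 and 115 against 18.4, 19.1 and 19.3 (2.44 ± 0.09, adjusted p = 1.39e-07).

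Against wildtype at high density 12 of 19 hexose transporter and sensor genes were still called higher and none lower (median 0.57), and against the triple mutant 3 were higher and 4 lower. HXT7 read 433, 802 and 367 in wildtype at high density and 599, 751 and 627 in the triple mutant. HXT4 read 407, 504 and 349 and 363, 538 and 449 in the same groups. Neither was called against wildtype at high density (−0.15 ± 0.27 and 0.44 ± 0.16, adjusted p = 0.675 and 0.06), whereas MTH1 was (0.90 ± 0.17, adjusted p = 0.00474). HXK1, a hexokinase made in low glucose, read 387, 319 and 404 against 50.5, 37.1 and 39.2 at low density (3.13 ± 0.13, adjusted p = 2.8e-07). Its value against high density, 0.53 ± 0.25, did not pass (adjusted p = 0.132).

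Glycolysis and fermentation genes were mostly lower. Of 23, 16 were called lower and 3 higher, with a median of −0.43. Enolase gene ENO1 read 785, 828 and 893 normalized CPM against 2127, 2279 and 1895 (−1.33 ± 0.08, adjusted p = 3.71e-06). The higher ones were HXK1, the minor pyruvate kinase gene PYK2 (0.91 ± 0.07) and, named to complete the count, the pyruvate decarboxylase gene PDC5 (0.30 ± 0.09). The PDC5 call was lost without degron replicate 1 or 3 or wildtype replicate 1 or 3 (adjusted p from 0.0508 to 0.0853). Gluconeogenic genes had 7 of 17 higher and 1 lower. MDH2, the cytosolic malate dehydrogenase, was at 1.53 ± 0.07, the aldehyde dehydrogenase gene ALD4 at 1.14 ± 0.07 and ADR1, an activator of genes repressed by glucose, at 1.36 ± 0.10. ADR1 was higher than wildtype at high density as well (1.24 ± 0.10). Storage carbohydrate genes had 10 of 20 higher and 2 lower, with glycogen phosphorylase GPH1 at 1.27 ± 0.08, glycogen synthase GSY2 at 1.08 ± 0.06 and phosphoglucomutase PGM2 at 0.83 ± 0.07.

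**Figure D4:**
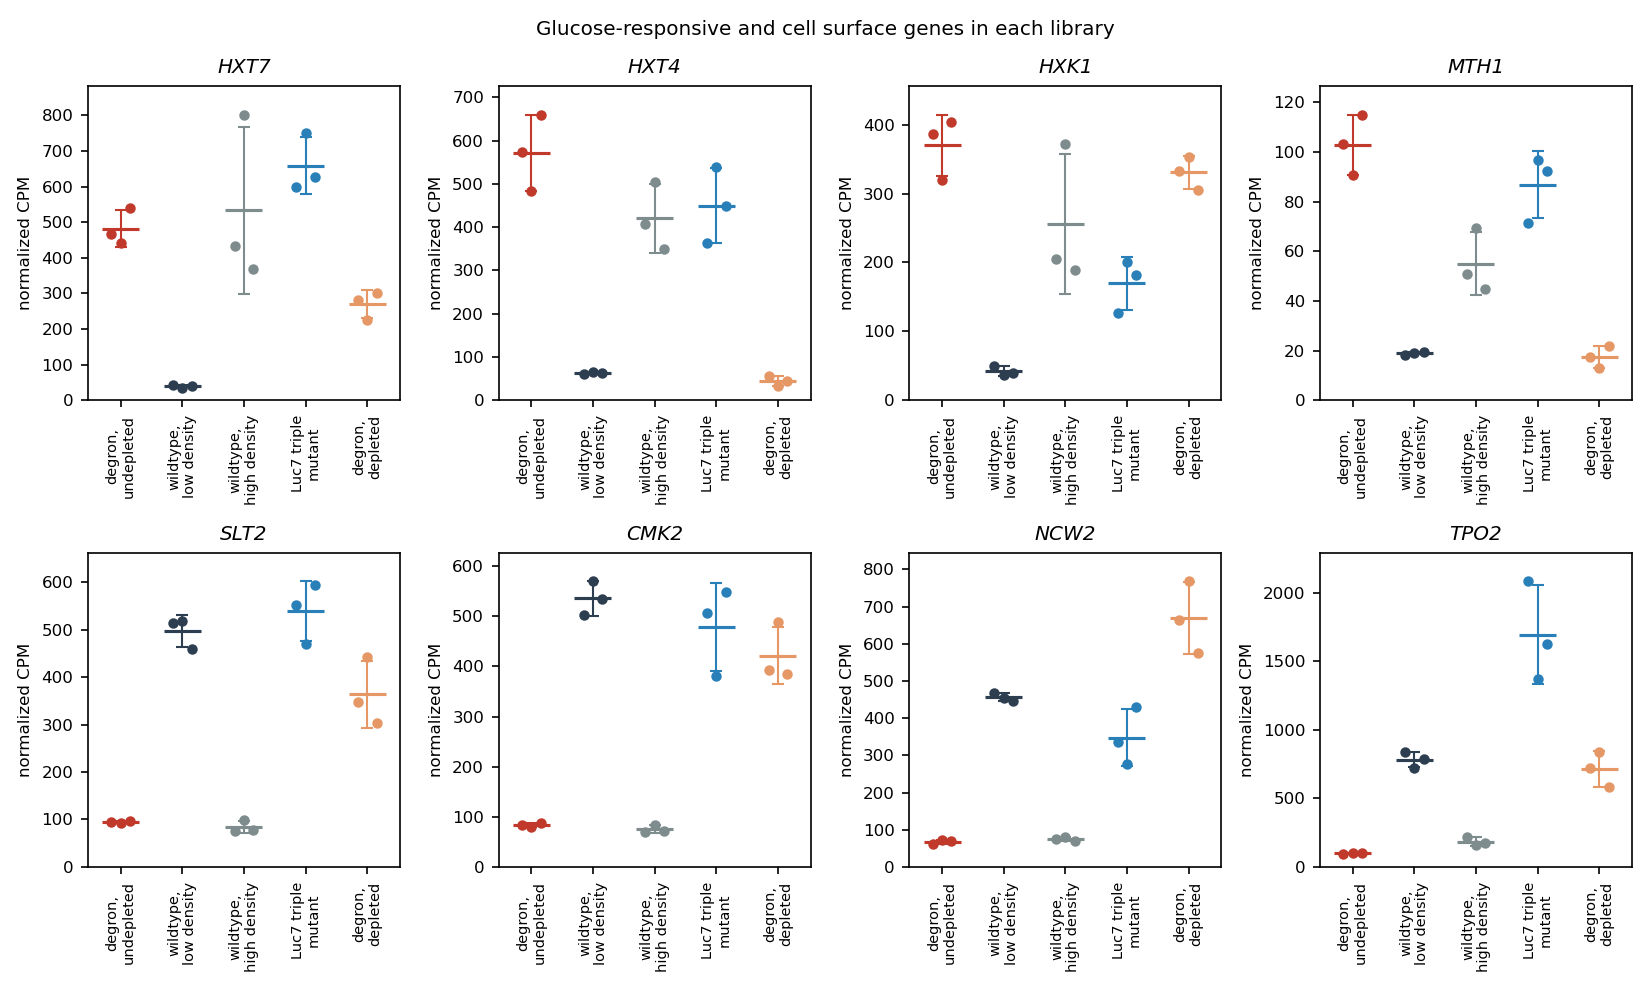
Normalized CPM (linear axes from 0) of 4 glucose-responsive genes in the upper row and 4 genes of calcium, wall and polyamine functions in the lower row, in the 3 libraries of 5 groups, with mean and ± 1 SD. Undepleted degron cells sit near wildtype at high density in the upper row for HXT7 and HXT4 and in the lower row for SLT2, CMK2 and NCW2.

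Calcineurin genes were mostly lower, and the cell wall list had calls in both directions. Calcineurin, a phosphatase activated by calcium, acts through the factor Crz1, and Slt2 is the kinase at the end of the cell wall integrity pathway. Of 15 calcineurin genes 10 were called lower and none higher, with a median of −0.55. CMK2, a calmodulin-dependent kinase gene, read 83.4, 79.4 and 86.8 normalized CPM against 502, 570.3 and 534 (−2.69 ± 0.07, adjusted p = 2.58e-08). RCN2, a calcineurin regulator, was at −1.59 ± 0.07 and PUN1, a plasma membrane protein gene, at −1.54 ± 0.08. SLT2 read 95.2, 93.4 and 96.7 against 514, 519 and 459 (−2.39 ± 0.07, adjusted p = 2.58e-08), and the wall genes PST1 and YPS3 were at −1.36 ± 0.06 and −1.65 ± 0.09. The wider wall list was mixed, with 12 of 50 higher and 18 lower.

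Wildtype at high density had low levels of these genes too. There SLT2 read 75.9, 98.5 and 77.8 and CMK2 70.2, 83.8 and 71.0, and neither was called against the degron strain (0.18 ± 0.11 and 0.15 ± 0.09, adjusted p = 0.235 and 0.235). The calcineurin list had a median of −0.02 in that comparison, with 2 higher and 4 lower. Against the triple mutant it was −0.50, with 12 of 15 lower.

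Several of the lowest genes of the comparison are membrane or surface proteins. NCW2, a wall protein gene, read 60.7, 72.4 and 69.2 normalized CPM against 468, 455 and 447 (−2.76 ± 0.08, adjusted p = 2.58e-08). TPO2 encodes a polyamine exporter and read 96.5, 104 and 97.8 against 834, 724 and 787 (−2.98 ± 0.08, adjusted p = 2.58e-08). Its near relative TPO3 was at −1.56 ± 0.08, and TDA6, the gene beside TPO3 on chromosome XVI, read 17.7, 19.1 and 20.6 against 213, 196 and 221 (−3.46 ± 0.09, adjusted p = 2.58e-08). TPO1, another exporter of the family, went the other way (1.06 ± 0.11). HSP30, a membrane stress protein gene, read 22.7, 23.5 and 26.8 against 173, 201 and 220.3 (−3.03 ± 0.11), and SRL3, a gene found as a suppressor of rad53 lethality, 9.70, 9.46 and 8.27 against 97.7, 92.5 and 81.5 (−3.31 ± 0.10). TDA6, TPO2 and HSP30 were below wildtype at high density too (−1.07 ± 0.09, −0.88 ± 0.12 and −1.05 ± 0.19), while SRL3 and NCW2 were not called there.

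Iron and phosphate uptake genes were also lower. Of 26 iron regulon genes tested, 16 were called lower and 1 higher, with a median of −0.43. FIT2, a wall protein that retains iron carriers, was picked after its values were seen and read 10.5, 14.7 and 15.4 normalized CPM against 105, 80.8 and 51.1, with a wide spread in wildtype (−2.54 ± 0.24, adjusted p = 4.9e-05). ENB1, a siderophore transporter, was at −1.20 ± 0.08, the ferroxidase gene FET3 at −0.87 ± 0.07 and the iron-sulfur scaffold gene ISU2 at −1.42 ± 0.09. In the comparison with wildtype at high density the list had 6 higher and 2 lower, and ISU2 was 1 of those lower (−1.99 ± 0.09). Phosphate genes had 11 of 16 lower and none higher (median −0.32). The acid phosphatase genes PHO11 and PHO12, which are near-identical copies, were at −1.52 ± 0.07 and −1.25 ± 0.06 and the phosphatase gene PHM8 at −0.71 ± 0.08. Of 11 zinc genes 2 were higher and 4 lower, with the zinc transporter genes ZRT1 and ZRT2 at −1.10 ± 0.08 and −0.71 ± 0.06 and IZH1 at 0.87 ± 0.07.

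Mating genes showed the a-cell receptor in both strains and were mostly higher in the degron strain. STE2, the alpha-factor receptor made by a cells, read 788, 715 and 701 normalized CPM in degron cells and 493, 458 and 530.1 in wildtype. STE3, the a-factor receptor made by alpha cells, read 8.99, 6.94 and 9.30 and 6.56, 6.61 and 5.82, over a coding length of 1413 bases against 1296 for STE2. STE3 was not called (0.41 ± 0.16, adjusted p = 0.056) but was without degron replicate 2 (adjusted p = 0.0294). Of the a-cell markers, the pheromone genes MFA1 and MFA2 had few reads in every library, 5 to 16 in degron cells and 2 to 14 in wildtype. Among 6 tested a-specific genes 5 were called higher. BAR1, the protease that degrades alpha factor, was at 0.81 ± 0.06 and AGA2, an agglutinin subunit, at 1.20 ± 0.20, while STE6 and ASG7 were at 0.50 ± 0.11 and 0.50 ± 0.14. The ASG7 call was lost without degron replicate 3 or wildtype replicate 1 (adjusted p = 0.0533 and 0.0639). Of 12 haploid mating genes 9 were higher and none lower (median 0.74), with the G1 arrest factor FAR1 at 1.21 ± 0.07, FUS1 at 1.06 ± 0.11 and the G protein subunit GPA1 at 0.75 ± 0.07.

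Mating genes were not high against every control. Haploid mating genes had 3 higher and 5 lower of 12 against wildtype at high density (median −0.13), and 10 higher against the triple mutant. When wildtype at high density was the control, 5 of 7 a-specific genes were called lower and none higher, with STE2 at −0.33 ± 0.09 and AGA2 at −1.50 ± 0.23. Against the triple mutant 5 of 7 were higher. Of 4 alpha-specific genes 2 were called higher at low density. MF(ALPHA)1, which encodes the alpha factor, read 0.737, 1.02 and 1.60 normalized CPM against 0.343, 0.389 and 0.108 (2.01 ± 0.50, adjusted p = 0.00843). SAG1, the alpha-cell adhesion gene, was the other (0.35 ± 0.09, adjusted p = 0.00823), at 42.9 to 48.7 normalized CPM against 32.6 to 38.2.

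Cyclin genes were mostly higher and histone genes mostly lower than in wildtype at low density. Of 21 cyclin and G1 genes 16 were called higher and 1 lower, with a median of 0.48. CLB1, a mitotic cyclin, read 210.4, 198 and 216 normalized CPM against 66.6, 69.0 and 71.9 (1.59 ± 0.07, adjusted p = 2.65e-07), and the S-phase cyclin CLB5 was at 0.91 ± 0.08. The lower gene was PCL1, a G1 cyclin that binds Pho85 (−0.82 ± 0.08). Set against wildtype at high density the cyclin list had 4 higher and 6 lower (median 0.02). Of 11 histone genes 8 were lower and 1 higher, with a median of −0.72. HHT2 read 322, 527 and 457 against 874, 980.0 and 884, with degron replicate 1 the lowest (−1.07 ± 0.15, adjusted p = 0.000423), and HHF2 and HTB1 were at −0.83 ± 0.08 and −0.74 ± 0.08. Histone genes come in pairs of copies, so the split between copies is uncertain. Meiosis genes had 8 of 22 higher and 2 lower, from low levels: SPS4 read 5.54, 6.66 and 6.27 against 1.14, 1.17 and 2.08 (2.06 ± 0.26), and the regulators IME2 and NDT80 were at −1.28 ± 0.10 and −0.65 ± 0.08.

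**Figure D5:**
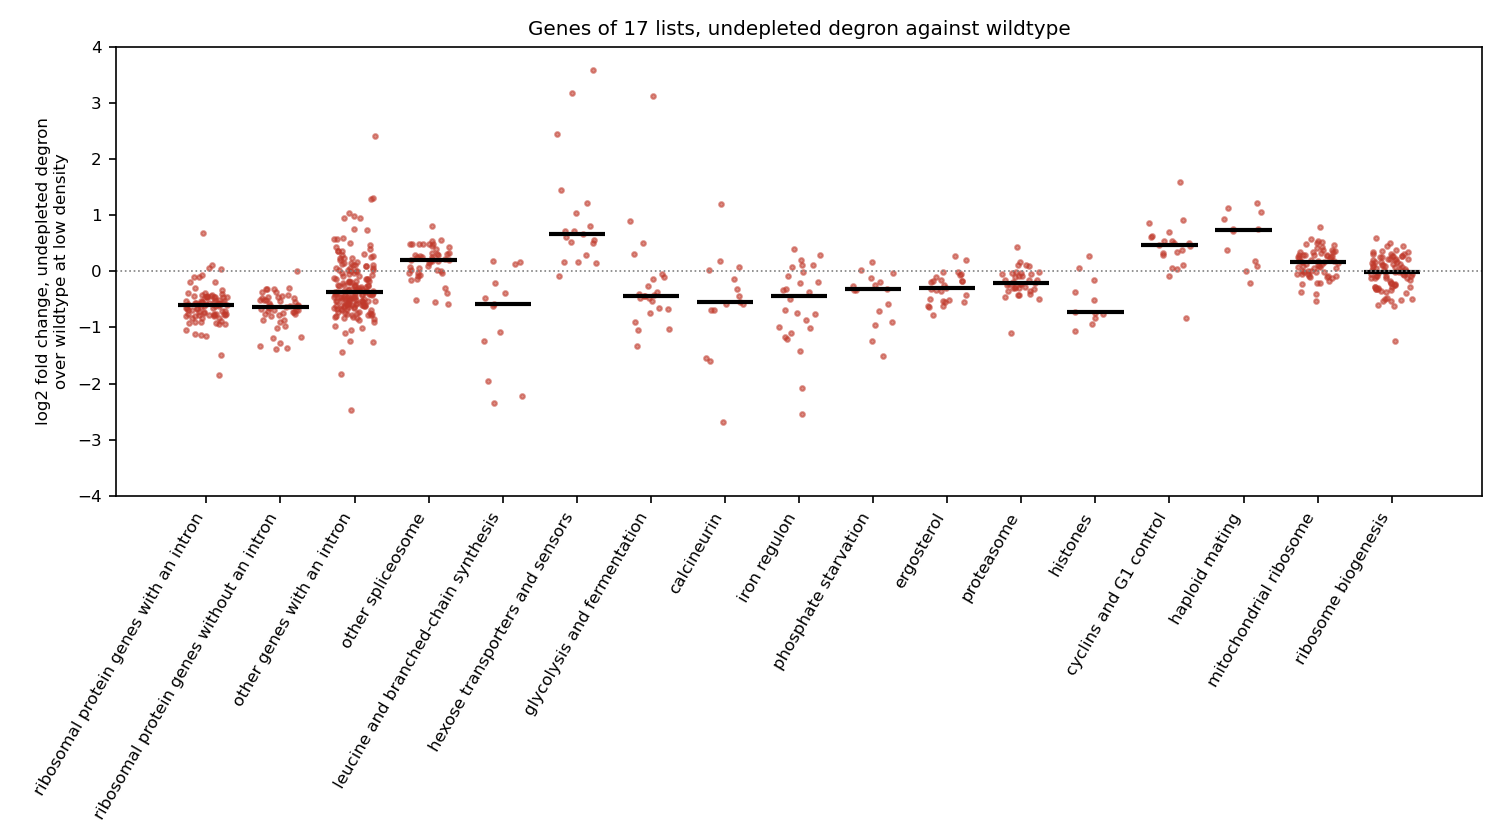
Log2 fold change of undepleted degron cells over wildtype at low density (linear axis) for the tested genes of 17 lists, with each point a gene and the line the median; LEU2, which has no read in wildtype, is left out of the points and of the median. Ribosomal protein, other intron, histone and calcineurin genes lie mostly below 0, and hexose transporter, cyclin and haploid mating genes mostly above.

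The mitochondrial lists differed in direction, against a background of 26.4% of genes called higher and 25.3% lower. Mitochondrial ribosome genes had 28 of 65 higher and 2 lower (median 0.17), although 18 were higher without wildtype replicate 1. RSM22, a methyltransferase gene tied to the small subunit, was at 0.79 ± 0.06, with MRPL11 and MRP13 at 0.52 ± 0.07 and 0.54 ± 0.07. Respiratory chain genes had 14 of 40 higher and 2 lower, and 23 higher after the offset for length and GC. Succinate dehydrogenase genes SDH1 and SDH2 were at 1.14 ± 0.09 and 0.61 ± 0.08, cytochrome c1 gene CYT1 at 0.86 ± 0.09 and the external NADH dehydrogenase gene NDE1 at −0.63 ± 0.06. Of 16 citric acid cycle genes 6 were higher and 3 lower, with LSC2, a succinyl-CoA ligase subunit, at 0.88 ± 0.06. Among 20 mitochondrial carriers 9 were lower and 2 higher, and beside OAC1 they included the phosphate and copper carrier PIC2, which read 37.3, 37.3 and 34.4 normalized CPM against 142, 167 and 153 (−2.09 ± 0.08), and the dicarboxylate carrier DIC1 (−1.61 ± 0.11).

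The mitochondrial ribosome list, set against wildtype at high density, had 6 higher and 14 lower of 65, and against the triple mutant 44 higher and 0 lower. Retrograde response genes, which answer to mitochondrial state, had 4 of 10 higher and 3 lower. PDH1, of propionate breakdown, was at 0.89 ± 0.12, and the ammonium exporter gene ATO3 read 42.0, 50.9 and 49.6 normalized CPM against 171, 176 and 150.1 (−1.80 ± 0.09).

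Proteasome and ergosterol genes were mostly lower where called, and stress lists had calls in both directions. Of 37 proteasome genes 20 were lower and 1 higher (median −0.21), with PUP2 at −0.50 ± 0.08 and RPN14 at −0.46 ± 0.07. With wildtype at high density as the control, 13 were higher and 2 lower. Of 27 ergosterol genes 16 were lower and 2 higher, with MVD1 of the mevalonate pathway at −0.78 ± 0.06 and ERG2 and ERG3 at −0.63 ± 0.06 and −0.61 ± 0.06. Chaperones had 5 of 25 higher and 10 lower at low density, among them the disaggregase gene HSP104, 353, 336 and 329 normalized CPM against 805, 763 and 839 (−1.24 ± 0.07), and SSE2 (−0.82 ± 0.07). The 5 higher were 2 without degron replicate 3 or wildtype replicate 1 and 3 without degron replicate 2 or wildtype replicate 3. Set against wildtype at high density, 17 chaperone genes were higher and none lower, and HSP104 was at 0.87 ± 0.14. General stress genes had 13 of 32 higher and 3 lower, with the secreted protein gene YGP1 at 1.18 ± 0.07 and the wall gene SPI1 at −1.74 ± 0.12. Antioxidant genes had 8 of 24 lower and 2 higher, with the peroxiredoxin gene TSA1 at −0.60 ± 0.07, superoxide dismutase SOD1 at −0.88 ± 0.11 and the regulator YAP1 at 0.55 ± 0.07.

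Ribosome biogenesis genes did not share a direction at low density. Of 87, 25 were higher and 27 lower (median −0.02), shares close to the background, and 14 were higher without wildtype replicate 1. NOG2, a GTPase of the large subunit whose gene has an intron, was at −0.60 ± 0.06 and the helicase gene DBP7 at 0.59 ± 0.06. Against the triple mutant 62 of 87 were higher and 11 lower.

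Purine, one-carbon and arginine genes had calls in both directions at low density and were mostly below wildtype at high density. Purine synthesis genes had 6 of 15 higher and 6 lower at low density but none higher and 13 lower at high density (median −1.40). ADE17, of the last steps of purine synthesis, read 839, 728 and 708 normalized CPM in degron cells, 259, 259 and 292 in wildtype at low density and 3143, 2138 and 3316 at high density. The degron libraries thus lay between the wildtype groups (1.49 ± 0.08 and −1.92 ± 0.16). Of 8 one-carbon genes 4 were higher and 2 lower at low density, and 8 lower at high density, with the glycine cleavage genes GCV1 and GCV2 at 1.24 ± 0.06 and 0.94 ± 0.08 against low density and −2.22 ± 0.20 and −2.21 ± 0.24 against high density, and SHM2, serine hydroxymethyltransferase, at 0.77 ± 0.06 and −1.72 ± 0.15. Arginine synthesis genes had 3 of 10 higher and 2 lower at low density and all 10 lower at high density (median −1.72). The lower count at low density was 1 without degron replicate 1 or 2 and 4 without wildtype replicate 3, and that of one-carbon genes 1 without degron replicate 2 or 3 or wildtype replicate 1 or 2. IMD2, the inosine monophosphate dehydrogenase gene that responds to GTP, was at −1.41 ± 0.11.

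Gcn4, the activator of amino acid synthesis, its regulators and target genes had 14 of 19 lower and 4 higher (median −0.33), with HOM2 and THR1 of threonine synthesis at −0.72 ± 0.06 and −0.80 ± 0.06. The 4 higher were 2 without degron replicate 1 and 1 without degron replicate 2 or wildtype replicate 1. Nitrogen-regulated genes had 9 of 22 higher and 3 lower. The ammonium permease gene MEP2 was at 1.08 ± 0.09, the general permease GAP1 at 0.87 ± 0.09 and the regulator GZF3 at 0.89 ± 0.07, while glutamine synthetase GLN1 was at −0.47 ± 0.06. The amino acid permease genes AGP1 and MUP1 were at 1.26 ± 0.08 and 0.71 ± 0.07. Thiamine genes had 5 of 15 higher and none lower, with the transporter THI7 at 0.96 ± 0.10 and the regulator THI2 at 1.12 ± 0.14, and 3 were higher without degron replicate 1 or 3 or wildtype replicate 3.

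The other lists had fewer calls or calls in both directions. Higher and lower calls numbered 2 and 5 of 21 sulfate and methionine genes, 2 and 2 of 9 galactose genes, and 1 and 3 of 9 lysine genes. They numbered 2 and 4 of 7 histidine genes, 3 and 6 of 15 aromatic amino acid genes, and 5 and 4 of 12 permease genes under the SPS sensor. These counts are small and moved when 1 library was left out. Histidine genes had 2 lower without any 1 degron library or wildtype replicate 1, and 0 or 1 higher without any library but wildtype replicate 2. Galactose genes had 0 lower without degron replicate 2 and 1 without degron replicate 3, lysine genes 1 lower without degron replicate 3, and sulfate and methionine genes 4 higher without wildtype replicate 3. Drug efflux genes had 9 higher and 6 lower of 20, and RNA decay genes 5 and 7 of 34. Inositol and phospholipid genes had 0 and 2 of 9, biotin genes 1 and 1 of 5, copper genes 0 and 1 of 5. The higher count of RNA decay genes was 3 without degron replicate 1 or wildtype replicate 1, and the lower count of inositol and phospholipid genes 1 without degron replicate 2 or 3 or wildtype replicate 1 or 2. The yeast subunits of the ubiquitin ligase that auxin degrons use had 1 higher and 1 lower of 8.

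Since the density of the degron cultures is not labelled, most lists given above at low density only follow here against wildtype at high density, where 17.2% of genes were called higher and 19.2% lower. U1 snRNP genes, LUC7 included, had 4 higher and 7 lower of 17, and other spliceosome genes 15 higher and 4 lower of 48. Glycolysis and fermentation genes had 4 higher and 8 lower of 23, gluconeogenic genes 8 higher and 1 lower of 17, and storage carbohydrate genes 6 higher and 4 lower of 20. The counts were 0 higher and 9 lower of 16 for phosphate genes and 0 higher and 9 lower of 11 for histone genes. Ergosterol genes had 5 higher and 4 lower of 27, cell wall genes 12 higher and 9 lower of 50, general stress genes 7 higher and 4 lower of 32, and antioxidant genes 5 higher and 4 lower of 24. Respiratory chain genes had 3 higher and 9 lower of 40, against 14 and 2 at low density, and mitochondrial carriers 2 higher and 11 lower of 20. Leucine and branched-chain genes, LEU2 included, had 1 higher and 11 lower of 14. Gcn4 and its related genes had 0 higher and 11 lower of 19. Nitrogen-regulated genes had 3 higher and 8 lower of 22, and thiamine genes 5 higher and 1 lower of 15.

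The remaining genes at the extremes of the comparison have little known function. YKR075C read 271, 281 and 322 normalized CPM against 80.5, 63.7 and 69.3 (2.03 ± 0.10, adjusted p = 8.19e-07). YGR035C read 44.5, 39.7 and 39.8 against 10.1, 11.5 and 10.3 (1.95 ± 0.09, adjusted p = 6.06e-07), and it stood above wildtype at high density and the triple mutant as well (2.29 ± 0.19 and 2.13 ± 0.15). BSC1 was unsteady in wildtype, at 46.3, 13.5 and 98.8 against 192, 168 and 178 (1.75 ± 0.51, adjusted p = 0.0167), and its call was lost without degron replicate 1 or wildtype replicate 1 (adjusted p = 0.0505 and 0.0620), while its log2 value was 2.57 without wildtype replicate 3. YCR087C-A had 0, 15 and 6 reads in degron libraries against 536, 687 and 549 in wildtype (−6.87 ± 0.43), but 13, 33 and 705 in wildtype at high density. Its log2 value was −8.08 without degron replicate 2. YPR136C and YDR133C were higher (1.77 ± 0.25 and 1.77 ± 0.16) and YLR062C and YLR076C lower (−3.14 ± 0.16 and −2.78 ± 0.30), and these 4 names did not match the R64 annotation used here.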

How the data were processed

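Polyadenylated RNA of 21 libraries, 3 in each of 7 groups, was analysed, and groups came from the submitters' labels. The submitters' processing notes name cutadapt, Salmon 1.9 and sacCer3, and no source used here gives the strand setting or read layout. The deposited estimated counts, made by Salmon, are fractional where a read could belong to more than 1 sequence, and were rounded to whole numbers. The TPM values, deposited beside them by the authors, were used in an alternative only. Lengths and effective lengths are as deposited, in bases.

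Each comparison was fitted on its own 2 groups with edgeR 4.0.16 in R 4.3.3: TMM scaling, filterByExpr with a minimum count of 10, the quasi-likelihood test and Benjamini-Hochberg adjustment over all genes tested. The fits were also run on simulated counts. Far fewer genes were changed there than were called here, so that run does not check calls at the share seen here. Alternatives used limma 3.58.1 on log2(TPM + 1) with a pseudocount of 1, DESeq2 1.42.0 and its size factors, TMM without ribosomal protein genes, no filter, a mean of 10 CPM, all 7 groups, a replicate block, each library left out, and an offset for coding length and GC (spline, 4 degrees of freedom). Centring the TPM values was added after the data had been seen. Names of 5906 of 6571 sequences matched the R64 annotation and 665 did not.

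The comparison and the gene lists were chosen with earlier results of these data known. Named were LUC7, YHC1, the marker genes, the 10 highest and 10 lowest called genes whose libraries did not overlap at a mean of 10 CPM or more, and 3 called members of each list by smallest p; not all 10 and 10 or all list members that met the rule are printed. Replicates of a group differed by more than sampling noise. Same-numbered libraries of the compared groups correlated in their deviations at 0.09, 0.16 and −0.23, so numbers were not taken as pairs. Motifs were searched in the 600 bases before each coding start, on both strands. Each value rests on 3 libraries a group of 29.1 M reads or more.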

Additional observations from a re-analysis of the deposited data

How the results depend on the processing

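In the comparison with wildtype at low density the counts stayed within 1.5 times the reported ones under every setting but 1. On log2 TPM without centring, limma called 3439 higher and 463 lower there, 1793 and 693 against wildtype at high density, and 2978 and 863 against the triple mutant, while the median of all genes moved to 0.36, 0.15 and 0.20. Centred, the first pair was 1320 and 1658. Leaving out 1 library gave 1227 to 1568 higher and 1267 to 1613 lower at low density. Against wildtype at high density it gave 588 to 1214 higher and 679 to 1332 lower, with the lowest counts without degron replicate 3 or wildtype replicate 1. A replicate block gave 1622 and 1563, 992 and 1112, and 1598 and 1763 in the same order. Correlations between same-numbered libraries differed in sign, so the replicate number was not taken as a pairing. So few values cannot exclude a pairing. Among genes given in the text only SMD2 lost its call with the block.

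Of 155 genes given in the text 151 were called, 133 kept the call in all 16 settings, 17 lost it in at least 1, and MET17 changed sign. On uncentred log2 TPM, MET17 was at 0.032, TRP1 at 0.26 and YIL060W at 0.34, all 3 against negative reported values. List medians relative to all genes changed sign in at least 1 setting for 11 lists, whose reported values ran from −0.19 to 0.07 and whose changed values ran from −0.07 to 0.12. Ribosome biogenesis was at 0.0047 on log2 TPM, centred or not, and the ubiquitin ligase subunits at −0.037 on log2 TPM in both forms and −0.069 after the offset for length and GC. After that offset inositol and phospholipid genes were at 0.12 and retrograde response genes at 0.11. SPS permeases were at 0.06 on log2 TPM. With the offset sulfate and methionine genes were at 0.031 and antioxidant genes at 0.014, and without 1 library sulfate and methionine ranged from −0.092 to 0.0077. Copper genes were at 0.04 without degron replicate 2 and 0.05 without wildtype replicate 2. Further counts of 2 or fewer called members in the minority direction (leucine, iron, ergosterol, respiratory chain, storage carbohydrate and carrier lists among them) also moved by 1 when a library was left out. Fewer called members were found for other spliceosome genes on centred TPM (16 higher), general stress genes with all 7 groups (8 higher), and meiosis and thiamine genes at a mean of 10 CPM (4 and 2 higher, with fewer genes tested). Apart from the smaller number of genes tested, the cause was not tested.

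Genes of low counts, such as MF(ALPHA)1 and SPS4, are held to small changes by the pseudocount on the TPM scale. Read numbers bound counting error only, and 3 libraries a group limit what can be called. Genes in near-identical copies and those with overlapping neighbours are uncertain, because the strand setting is not given.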
